A study of Mus musculus with 15 samples.

Results

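The comparison described here asked which genes responded differently to dexamethasone in 3134 and AtT-20, 2 mouse cell lines, over the times at which both lines have the same number of arrays. Its arrays were chosen by design: the 0, 2 and 4 h arrays of both lines, which are 12 of the 15 arrays of the study. The 8 h arrays were left out because AtT-20 has only 1 there. Earlier results of these data were known when the comparison was chosen. The response of a line was the mean log2 level at 2 and 4 h minus the level at 0 h, and the difference in response was that of 3134 minus that of AtT-20. A difference above 0 can therefore come from a gain in 3134, from a loss in AtT-20 or from both, and the responses of each line are given beside it.

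The 3134 cells were labelled as derived by transformation of C127, a mammary tumour line of RIII mice, and the AtT-20 cells as pituitary corticotrophs of LAF1 origin. Each line had 2 arrays at 2 h and 2 at 4 h of 100 nM dexamethasone, and 2 at 0 h, which the labels describe both as untreated and as vehicle treated. All cells had first been moved to serum stripped of steroids with charcoal. In each line 1 array per time belonged to a run with lower serial numbers (run 1) and 1 to a run with higher serial numbers (run 2). The serial numbers of run 2 lie in different ranges in the lines, so a run number is not known to mark a single batch across them. The labels do not say that arrays of a group came from separate cultures. In the main fit the run was a block, so a shift shared by the arrays of a run was taken out. Its p-values therefore reflect the scatter left among these arrays, and that scatter may be technical. No cells were kept for 2 or 4 h without dexamethasone, so hormone and time in culture cannot be told apart.

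Dexamethasone is a synthetic glucocorticoid. It binds the glucocorticoid receptor (Nr3c1), which is held by chaperones in the cytoplasm, then enters the nucleus, binds DNA at glucocorticoid response elements and raises the transcription of some genes. It also lowers that of others, among them inflammatory genes driven by NF-kB and AP-1. In corticotrophs glucocorticoids are known for feedback on the Pomc gene, the precursor of the hormone that drives their own secretion, and in fibroblasts and epithelial cells they are known for lowering chemokines.

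Marker lists were read against a threshold of log2 6.27, the 40th percentile of all gene values, which a gene had to reach in at least 1 of the 6 group means to be tested. At 0 h the corticotroph genes Pomc and Tbx19 averaged log2 5.18 and 4.79 in 3134, against 13.25 and 12.02 in AtT-20, and 2 of 12 corticotroph genes reached the threshold in 3134, against 10 in AtT-20. Of 14 mesenchymal markers 12 reached it in 3134 and 6 in AtT-20. Vim, Col1a2 and Pdgfrb averaged 13.24, 12.70 and 10.84 in 3134, against 5.25, 6.43 and 4.99 in AtT-20, while Cdh2 (10.26 and 10.11), Zeb1 (9.11 and 8.75), Twist1 (8.73 and 8.33) and Col1a1 (6.84 and 6.64) were at like levels and Thy1 (4.53 and 5.10) and Acta2 (5.86 and 5.34) were below the threshold in both. Of 11 mammary epithelial markers 3 reached the threshold in 3134, which is labelled as mammary, and these were Gata3 (8.41, against 5.59 in AtT-20), Krt14 (7.01, against 6.05) and Krt8 (6.75, against 11.69). In AtT-20 also 3 of the 11 reached it, namely Krt8, Krt18 and Krt7. Epcam, Cdh1 and Krt18 averaged 4.30, 5.70 and 4.93 in 3134, against 3.63, 5.51 and 9.96 in AtT-20. None of the markers of mesenchymal, mammary epithelial, corticotroph, other pituitary, immune or endothelial cells that were tested, and none of the secretory granule genes, was called for the difference in response.

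Of 10190 genes tested, 258 (2.53%) differed in response between the lines at an adjusted p under 0.05 (limma with the run as a block, Benjamini-Hochberg). The difference was above 0 for 175 genes (1.72%) and below 0 for 83 (0.815%). On the deposited scale, without quantile normalization, the split was 96 above and 73 below 0. The response itself was wider in 3134, where 121 genes had a response of at least 1 and 34 of at most -1, against 27 and 2 genes in AtT-20. The median difference over all genes tested was -0.01 and its median standard error 0.183, and the number of arrays limits this precision. Without the block for run, 57 genes (0.559%) were called, 46 above and 11 below 0, and each of them was among the 258. Fewer genes were also called without the 3134 array at 0 h of either run, or without the AtT-20 array at 0 h of run 2. In the fit with the block, leaving out such an array drops the response of its run. The treated arrays of that run then have no 0 h level. Calls lost in these fits, here and below, therefore do not show dependence on that array alone.

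**Figure D1:**
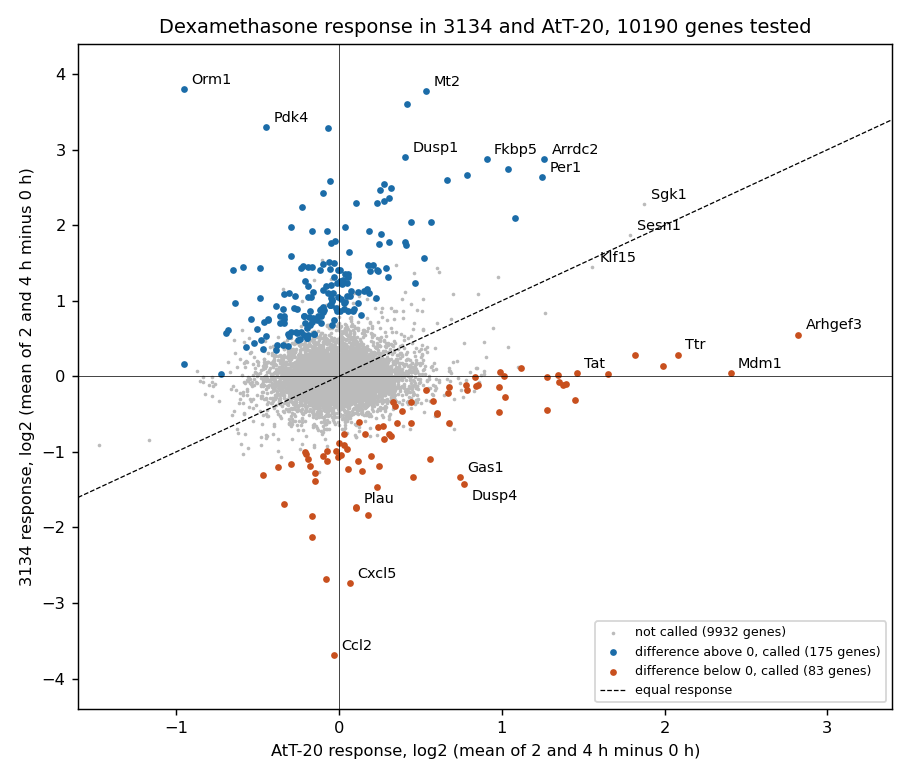
Log2 response (mean of 2 and 4 h minus 0 h) of each gene tested in 3134 (vertical axis) against AtT-20 (horizontal axis). Blue points are the 175 genes called with a difference above 0, orange points the 83 below 0, grey points genes not called, and the dashed line marks equal responses. Most called genes spread along the vertical axis, near 0 in AtT-20, while Sesn1, Klf15 and Sgk1 lie near the dashed line.

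The called genes showed a few patterns. Among the 175 with a difference above 0, 85 had a response of at least 1 in 3134 and one under 0.5 in size in AtT-20. A further 10 had responses of at least 0.5 in both lines, larger in 3134, 8 had responses of at least 0.5 in opposite directions, and 72 met none of these sizes. Among the 83 below 0, 28 had a response of at most -1 in 3134 with little in AtT-20, and 16 had a response of at least 1 in AtT-20 with little in 3134. A single gene, Arhgef3, had responses of at least 0.5 in both lines that were larger in AtT-20. In 4 genes the directions were opposite, and 34 met none of these sizes. No called gene had a response of at most -1 in AtT-20 with one under 0.5 in size in 3134.

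Many genes on the list of those known to be induced by glucocorticoids differed in response. Of 37 tested on that list, 20 had a difference above 0 and 4 below 0 that passed the test, against 1.72% and 0.815% of all genes tested. Without the block 13 of these 24 were called. The list's median difference was 1.01, against -0.01 over all genes. The list was drawn up with earlier results of these data known, so its count is a description. The 24 include Fkbp5, Per1, Dusp1 and Tsc22d3, described next, and the genes below 0 were Arhgef3, Cables1, Rasd1 and Tat.

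Fkbp5, a cochaperone that lowers the hormone affinity of the receptor, began at the same level in both lines. In 3134 it stood at 9.67 and 9.61 at 0 h, at 12.38 and 12.26 at 2 h, then at 12.65 and 12.77 at 4 h (log2, run 1 and run 2). Its AtT-20 levels were 9.75 and 9.57 at 0 h, 10.32 and 10.40 at 2 h, then 10.65 and 10.90 at 4 h. Every treated array lay above the 0 h arrays of its line, and every treated 3134 array lay above every AtT-20 array. The response was 2.87 in 3134 and 0.91 in AtT-20, and the difference was 1.96 ± 0.174 (SE, adjusted p from limma 0.000152).

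Dusp1, a phosphatase that switches off the stress MAP kinases, behaved likewise. It stood at 8.99 and 9.33 at 0 h, at 12.07 and 12.24 at 2 h, then at 11.997 and 11.94 at 4 h in 3134. The AtT-20 arrays gave 9.01 and 9.05, 9.36 and 9.54, and 9.68 and 9.17 at the same times. The lines overlapped at 0 h and were apart by more than 2 log2 units with dexamethasone. Its difference was 2.49 ± 0.215 (adjusted p from limma 0.000121), and all 6 of its probesets had a difference above 0.

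Per1, a repressor of the circadian clock, responded by 2.63 in 3134 and by 1.25 in AtT-20. Its levels were 7.20 and 7.40 at 0 h, 9.92 and 10.07 at 2 h, then 9.85 and 9.90 at 4 h in 3134. In AtT-20, where it began higher, they were 8.62 and 8.44, 10.00 and 9.71, and 9.88 and 9.53. The lines were apart at 0 h and overlapped with dexamethasone, so the larger response of 3134 ended at a like level. The difference was 1.38 ± 0.153 (adjusted p from limma 0.000665), with all 33 probesets in its direction.

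Tsc22d3, a leucine zipper protein that inhibits NF-kB and AP-1, responded by 2.60 in 3134 and by 0.67 in AtT-20. The difference was 1.93 ± 0.253 (adjusted p from limma 0.0021), but the call was lost without the block (adjusted p 0.0794), and the runs gave 1.43 (run 1) and 2.43 (run 2). Of its 12 probesets 9 had the direction of the gene. Nfil3, a basic leucine zipper repressor that competes with clock output activators, had a difference of 2.18 ± 0.16 (adjusted p from limma 6.26e-05). It went against a lower start, with 8.55 and 8.69 at 0 h in 3134 and 9.25 and 9.43 in AtT-20.

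**Figure D2:**
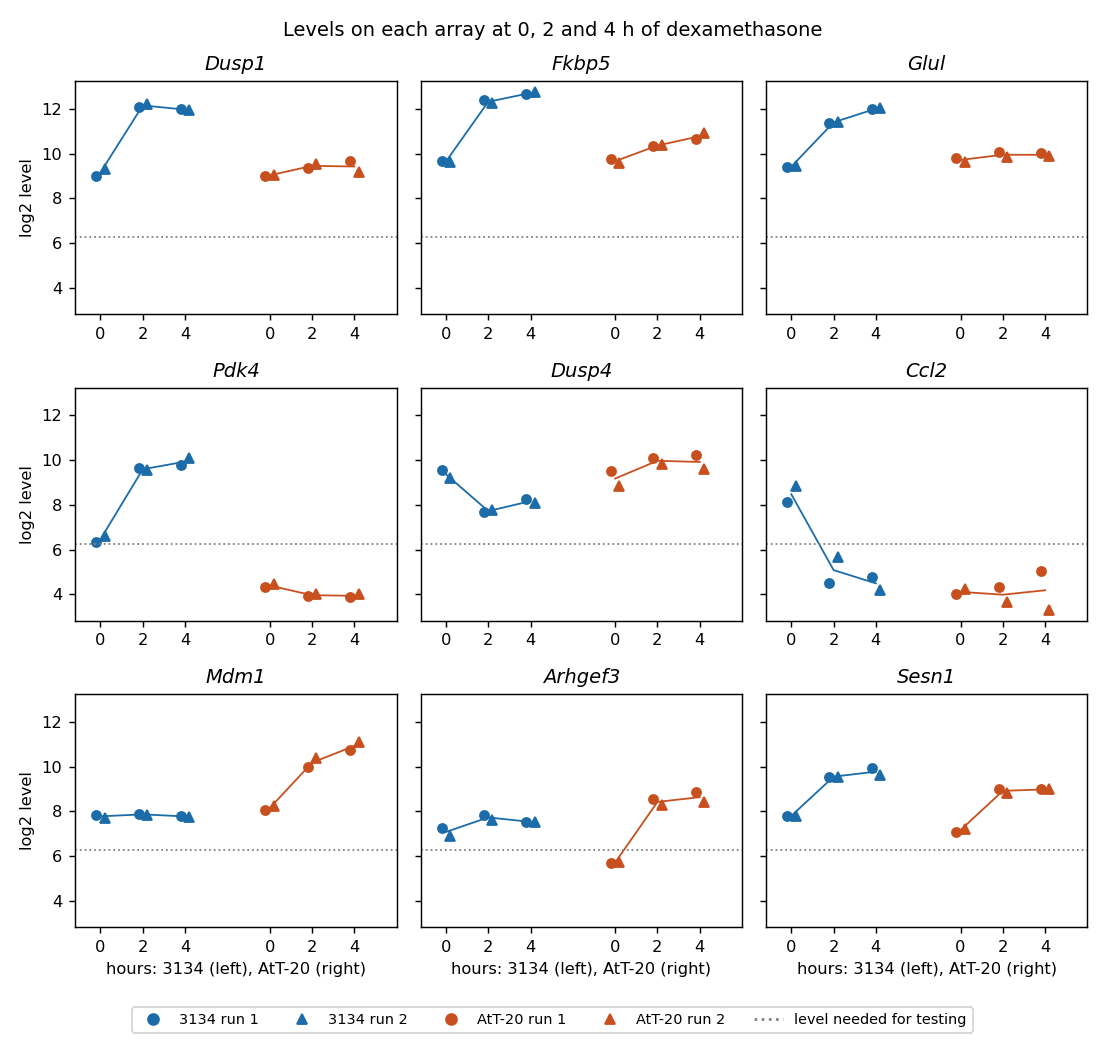
Log2 level of 9 genes on each array at 0, 2 and 4 h, with 3134 in blue on the left and AtT-20 in orange on the right of each panel. Circles are run 1, triangles run 2, lines join the group means of 2 arrays, and the dotted line is the level needed for testing, 6.27. Dusp1, Fkbp5 and Glul begin together in the lines and part with dexamethasone, Mdm1 and Arhgef3 move mainly in AtT-20, Ccl2 and Pdk4 stay below the dotted line in AtT-20, and Sesn1 moves alike in both.

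On the clock list, 3 of 15 genes tested were called, all above 0 (1.72% of all genes): Per1, Nfil3 and Bhlhe41 (0.83 ± 0.156, adjusted p from limma 0.0166). The call of Bhlhe41, a repressor that acts with the Period proteins, was lost without the block (adjusted p 0.113). It was also lost without the 3134 array at 0 h of run 1 (adjusted p 0.159) or of run 2 (adjusted p 0.095), without the run 1 array of 3134 at 2 h (0.0536) or 4 h (0.0514) or the run 2 array of AtT-20 at 0 h (0.102), and on the deposited scale (0.429). The core activators Clock and Arntl had differences of 0.11 and 0.16 that were not called.

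Genes of fuel use were among those that differed, and Pdk4 had the smallest p of all genes tested. Pdk4, the kinase that turns off pyruvate dehydrogenase and so spares glucose, stood in 3134 at 6.33 and 6.60 at 0 h, at 9.64 and 9.54 at 2 h, then at 9.76 and 10.10 at 4 h. The AtT-20 arrays read 4.32 and 4.46, 3.91 and 4.00, and 3.86 and 4.01, all below the level needed for testing. The difference was 3.75 ± 0.173 (adjusted p from limma 3.47e-06), and all 13 probesets shared its direction. The response in AtT-20, measured at this low level, was -0.45.

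Pfkfb3, which makes the activator of glycolysis fructose 2,6-bisphosphate, responded by 2.30 in 3134 and by 0.11 in AtT-20, where it too was below the level needed (4.40 to 4.86 over its 6 arrays). Glul, glutamine synthetase, was well measured in both lines. It stood at 9.40 and 9.43 at 0 h, at 11.37 and 11.44 at 2 h, then at 11.996 and 12.02 at 4 h in 3134, and at 9.79 and 9.65, 10.07 and 9.83, and 10.01 and 9.88 in AtT-20. Its difference was 2.06 ± 0.149 (adjusted p from limma 6.26e-05). On the lipid and fuel list, 5 of 22 genes tested were called above 0 (Pdk4, Pfkfb3, Glul, Fabp4 and Plin4) and 2 below 0 (Pparg and Tat). Over all genes tested the shares were 1.72% and 0.815%. The list's median difference was 0.06. Pparg, the master regulator of fat cell formation, had responses of -1.68 in 3134 and -0.34 in AtT-20.

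Acute phase and metal binding genes were among the largest differences above 0. Orm1, which encodes the plasma protein orosomucoid, stood in 3134 at 6.69 and 6.13 at 0 h, at 10.36 and 9.82 at 2 h, then at 10.85 and 9.82 at 4 h. Its AtT-20 levels were 4.34 and 5.27, 3.98 and 4.26, and 3.67 and 3.50, below the level needed throughout. The difference was 4.76 ± 0.275 (adjusted p from limma 1.83e-05), of which 3.80 was the response in 3134. Orm2, a close copy of Orm1 whose probes may share signal with it, had a difference of 3.35 ± 0.31. Lcn2, a siderophore-binding protein of the iron defence, responded by 3.61 in 3134 and by 0.42 in AtT-20, where it was below the level needed.

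Mt2, a metallothionein that binds zinc and copper, was measured in both lines and began higher in AtT-20. It stood in 3134 at 7.83 and 7.14 at 0 h, at 11.56 and 10.59 at 2 h, then at 12.06 and 10.82 at 4 h. In AtT-20 it stood at 10.66 and 9.59, 11.21 and 9.77, and 11.53 and 10.13. Run 1 lay above run 2 in every group. The difference of 3.24 ± 0.195 (adjusted p from limma 1.93e-05) was 3.27 in run 1 and 3.20 in run 2, and without the block for run it was not called (adjusted p 0.143). Slc39a14, a zinc importer, had a difference of 1.82 ± 0.168 (adjusted p from limma 0.000198). In all, 7 of 12 genes tested on this list were called, each above 0 (Orm1, Orm2, Lcn2, Mt1, Mt2, Slc39a14 and Slc10a6), against 1.72% of all genes. The list's median difference was 1.60. Without the block 5 of the 7 were called, and Mt1 and Mt2 were not (adjusted p from limma 0.668 and 0.143). Serpina3n, Mt3, Slc30a1, Cp and C3 were not called, with differences of 0.44, 0.22, -0.20, -0.07 and -0.06.

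Other genes among the 12 largest differences above 0 were Fam107a, an actin-associated stress gene (2.65 ± 0.184), Amy1, salivary amylase (2.53 ± 0.294), Edn1, the vasoconstrictor endothelin-1 (2.47 ± 0.326), Suox, sulfite oxidase (2.28 ± 0.324), Slc10a6, a carrier of sulfated steroids (2.27 ± 0.194), and Slc25a33, a mitochondrial nucleotide carrier (2.22 ± 0.171). Fam107a stood at 5.65 and 5.91 at 0 h, at 7.71 and 7.86 at 2 h, then at 8.65 and 9.26 at 4 h in 3134. Its 6 AtT-20 arrays lay between 4.97 and 5.74. Slc25a33 was measured in both lines and began lower in 3134, at 7.10 and 6.91 at 0 h, against 8.80 and 8.05 in AtT-20. It reached 10.07 and 9.50 at 2 h in 3134, and 8.83 and 8.28 in AtT-20. Suox and Amy1 were not called without the block (adjusted p from limma 0.195 and 0.0513), and Amy1 belongs to a family of near-identical amylase genes whose signal may be shared.

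The promoters of 4 of these genes are shown because each holds a full palindromic receptor motif, GNACA and TGTNC with 3 bases of any kind between them, which few promoters hold. Each line gives the 250 bases before the annotated start (RefSeq, GRCm38.p6), 5′ to 3′ on the strand of the gene, with the motif in capitals. Fam107a lies on the minus strand at chr14:8309778-8310027, Slc10a6 on the minus strand at chr5:103629404-103629653, Suox on the minus strand at chr10:128673919-128674168 and Amy1 on the minus strand at chr3:113577751-113578000.
Fam107a: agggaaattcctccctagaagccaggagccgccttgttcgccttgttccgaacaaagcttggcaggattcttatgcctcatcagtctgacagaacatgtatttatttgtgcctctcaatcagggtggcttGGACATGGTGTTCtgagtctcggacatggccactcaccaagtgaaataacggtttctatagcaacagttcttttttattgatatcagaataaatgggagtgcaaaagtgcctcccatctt
Slc10a6: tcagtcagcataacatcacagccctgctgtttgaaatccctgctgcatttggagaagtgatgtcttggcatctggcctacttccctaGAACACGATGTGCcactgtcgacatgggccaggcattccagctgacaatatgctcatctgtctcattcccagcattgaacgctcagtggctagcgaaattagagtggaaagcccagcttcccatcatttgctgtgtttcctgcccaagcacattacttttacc
Suox: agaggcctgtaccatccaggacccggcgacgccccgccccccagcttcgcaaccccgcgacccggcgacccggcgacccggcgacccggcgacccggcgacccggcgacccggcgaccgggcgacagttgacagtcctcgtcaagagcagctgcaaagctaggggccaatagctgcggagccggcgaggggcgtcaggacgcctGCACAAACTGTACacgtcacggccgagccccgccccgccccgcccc
Amy1: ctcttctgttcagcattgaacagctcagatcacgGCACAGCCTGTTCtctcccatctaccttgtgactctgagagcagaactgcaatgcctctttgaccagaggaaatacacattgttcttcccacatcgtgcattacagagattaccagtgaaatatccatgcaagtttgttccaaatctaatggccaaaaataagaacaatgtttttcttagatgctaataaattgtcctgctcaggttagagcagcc
The motif was searched on both strands from 250 bases before to 50 after the start. It was found in 6 of the 141 genes above 0 with a promoter sequence (4.26%), which were these 4, Mt1 and Map3k6, and in 0 of 60 genes below 0. Among all 8294 tested genes with a promoter it was found in 30 (0.362%), and it was found in 0.475% of all 32851 promoter windows given. Counted from the start site, the motif begins at position -120 in Fam107a, -163 in Slc10a6, -46 in Suox and -216 in Amy1. The single element AGAACA, which can overlap the longer motif, was in 14.2% of the genes above 0, 13.3% of those below 0 and 14.2% of all tested. These are matches of letters, and binding was not measured here.

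Chemokines differed in the other direction. Of 22 genes tested on the chemokine, cytokine and NF-kB list, 0 were called above 0 and 6 below 0 (0.815% of all genes): Ccl2, Cxcl5, Cxcl3, Cxcl1, Ccl7 and Vcam1. Without the block 3 of the 6 were called, and Cxcl3, Ccl7 and Vcam1 were not (adjusted p from limma 0.176, 0.154 and 0.302). The list's median difference was -0.48. Ccl2, which draws monocytes, stood in 3134 at 8.12 and 8.82 at 0 h, at 4.48 and 5.68 at 2 h, then at 4.77 and 4.20 at 4 h. In AtT-20 it lay between 3.29 and 5.06 on all 6 arrays. The difference was -3.66 ± 0.525 (adjusted p from limma 0.0036), and the response in 3134 was -3.69. In AtT-20, below the level needed for testing, the response was 0.69 in run 1 and -0.74 in run 2.

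Cxcl5, a ligand that draws neutrophils, stood at 8.15 and 8.41 at 0 h, at 5.11 and 6.02 at 2 h, then at 5.41 and 5.63 at 4 h in 3134, against 3.55 to 3.96 over the AtT-20 arrays. Its difference was -2.81 ± 0.238 (adjusted p from limma 0.000118). Cxcl3 had -2.60 ± 0.218. Cxcl1 had responses of -1.09 in 3134 and 0.56 in AtT-20, and 3 of its 5 probesets shared the direction of its difference (-1.65 ± 0.246). Tnip3, a partner of the NF-kB inhibitor A20 outside this list, had a difference of -1.96 ± 0.216 and was dim in AtT-20. The NF-kB subunits Rela, Nfkb1 and Nfkb2 had differences of -0.25, -0.08 and -0.13 that were not called. The inhibitor Nfkbia, a glucocorticoid target itself, had responses of 0.70 in 3134 and 0.60 in AtT-20 (difference 0.10, adjusted p from limma 0.922).

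Ccl2, Cxcl5, Cxcl3 and Tnip3 thus reached the level needed for testing in 3134 before dexamethasone and stayed below it in AtT-20 at every time. Their AtT-20 levels lay between 2.81 and 5.06. The level needed is a filter on low values and not a detection limit.

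Feedback regulators of MAP kinase and G protein signalling went both ways. Of 25 tested, 3 were called above 0 (Dusp1, Rgs2 and Errfi1) and 4 below 0 (Dusp4, Phlda1, Rasd1 and Dusp8), against 1.72% and 0.815% of all genes, with a median of -0.35. Dusp4, a nuclear phosphatase of ERK, had the same level in both lines at 0 h and then parted. In 3134 it stood at 9.54 and 9.20 at 0 h, at 7.68 and 7.76 at 2 h, then at 8.25 and 8.08 at 4 h. In AtT-20 it stood at 9.50 and 8.86, 10.11 and 9.83, and 10.22 and 9.62. The groups overlapped at 0 h and did not with dexamethasone, and the difference was -2.19 ± 0.184 (adjusted p from limma 0.000118). Rgs2, which speeds the shutdown of Gq signalling, responded by 2.75 in 3134 and by 1.04 in AtT-20 (difference 1.71 ± 0.181).

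Phlda1, a pleckstrin homology protein induced by growth factors, had a difference of -1.83 ± 0.182, which was not called without the block (adjusted p from limma 0.0815). Immediate early genes were called for 4 of 22 tested, against 2.53% of all genes, with a median of -0.30. Klf2 was above 0 (1.20 ± 0.178), and Fosl2 (-1.40 ± 0.191), Ier3 (-1.24 ± 0.198) and Myc (-1.10 ± 0.193) were below 0. None of these 4 was called without the block (adjusted p from limma 0.302, 0.311, 0.0653 and 1). Klf2, Ier3 and Myc were also not called without the 3134 array at 0 h of run 2 (adjusted p 0.0581, 0.0767 and 0.117). Without the AtT-20 array at 0 h of run 2, Ier3 and Myc were not called (adjusted p 0.0551 and 0.0515), and Myc was not called without the run 1 array at 0 h of 3134 (0.06) or AtT-20 (0.0588). Myc was below the level needed in AtT-20 at 0 h (6.18 and 5.16), against 10.97 and 11.07 in 3134.

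Genes of plasmin formation, the matrix and the YAP programme gave 2 calls above 0 (Ccn2 and Col4a1) and 4 below 0 (Plau, Plaur, Ankrd1 and Timp1) among 25 tested. Over all genes tested the shares were 1.72% and 0.815%, and the list's median difference was -0.19. Without the block 1 of the 6 was called. Timp1 had responses of -0.14 in 3134 and 0.67 in AtT-20, where it was below the level needed at all times. Its call was lost without the block (adjusted p from limma 0.23). Plau, the urokinase that turns plasminogen into plasmin, stood at 8.04 and 8.01 at 0 h, at 5.96 and 6.28 at 2 h, then at 6.42 and 6.46 at 4 h in 3134. It lay between 4.79 and 5.25 in AtT-20, and its difference was -1.85 ± 0.223 (adjusted p from limma 0.0012). Its receptor Plaur had -1.06 ± 0.18, which was lost without the block (adjusted p 0.12) and without the 3134 array at 0 h of run 1 (adjusted p 0.101) or run 2 (adjusted p 0.0528), or that of AtT-20 of run 1 (adjusted p 0.0602). A pair of YAP targets went opposite ways. Ankrd1, a nuclear ankyrin repeat protein, had -2.02 ± 0.32, and the matrix protein Ccn2 had 1.63 ± 0.236. Neither was called without the block (adjusted p 0.0715 and 0.186), and Ankrd1 was not called without the 3134 array at 0 h of run 2 (adjusted p 0.0635).

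**Figure D3:**
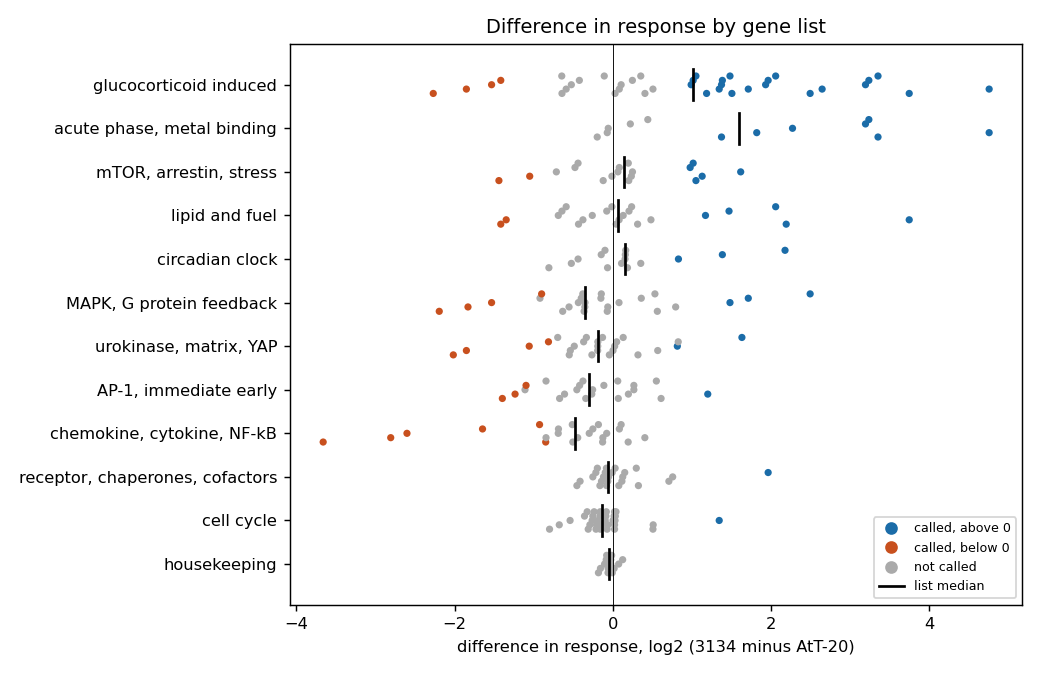
Difference in response (3134 minus AtT-20, log2, horizontal axis) of each tested gene on 12 of the gene lists (rows). Blue points were called above 0, orange points below 0, grey points were not called, and the black bar is the median of the list. The medians of the glucocorticoid-induced and the acute phase lists lie at 1.01 and 1.60, that of the chemokine list at -0.48, and those of the housekeeping and receptor lists near 0.

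Some genes responded mainly in AtT-20. Mdm1, a microtubule-binding protein of centrioles, was flat in 3134, between 7.71 and 7.90 on all 6 arrays. In AtT-20 it stood at 8.05 and 8.25 at 0 h, at 9.99 and 10.37 at 2 h, then at 10.76 and 11.10 at 4 h. The difference was -2.37 ± 0.153 (adjusted p from limma 3e-05), with all 18 probesets in its direction. It was -1.94 at 2 h and -2.79 at 4 h.

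Arhgef3, a guanine nucleotide exchange factor, responded in both lines and more in AtT-20. It stood in 3134 at 7.28 and 6.88 at 0 h, at 7.83 and 7.63 at 2 h, then at 7.54 and 7.52 at 4 h, and in AtT-20 at 5.68 and 5.74, 8.56 and 8.29, and 8.87 and 8.41. AtT-20 thus began below 3134 and ended above it, and the difference was -2.27 ± 0.191 (adjusted p from limma 0.000118). Cables1, a protein that links cyclin-dependent kinases to Abl, responded by 0.14 in 3134 and by 1.99 in AtT-20, but was below the level needed in 3134 (3.98 to 4.96) and was not called without the block (adjusted p 0.143). Tat, tyrosine aminotransferase, the classic glucocorticoid target of liver, was likewise dim in 3134 and responded by 0.04 there and by 1.46 in AtT-20 (difference -1.42 ± 0.172, adjusted p without the block 0.132).

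Of the 16 genes with a response of at least 1 in AtT-20 and under 0.5 in size in 3134, 7 were below the level needed in 3134 at all 3 times. The following genes were picked after their values were seen. Ttr, the thyroxine carrier transthyretin, had responses of 0.29 in 3134 and 2.08 in AtT-20. Rasd1, a Ras-like protein first found as induced by dexamethasone in AtT-20 cells, had 0.28 and 1.82. Both were below the level needed in 3134 at all 3 times, and neither was called without the block (adjusted p from limma 0.951 and 0.272). Noct, a circadian phosphatase of NADP, was measured in both lines, with responses of -0.45 in 3134 and 1.28 in AtT-20 and a difference of -1.72 ± 0.16 (adjusted p from limma 0.000229, without the block 0.183). Nqo1, a quinone reductase, had responses of -0.11 in 3134 and 1.38 in AtT-20, where it stayed below the level needed at 0, 2 and 4 h, and was not called without the block (adjusted p 0.0788).

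In 12 called genes the responses were at least 0.5 in size in opposite directions: Orm1, Dusp4, Gas1, Kcnf1, Sox4, Cxcl1, Gcnt2, Tspear, Arhgap10, Apol7a, Ccr7 and Dipk1a. Only Dusp4, Gas1, Kcnf1 and Sox4 reached the level needed in both lines at 0 h. Gas1, a surface protein that halts growth and binds Hedgehog, stood in 3134 at 10.32 and 10.70 at 0 h, at 8.76 and 8.97 at 2 h, then at 9.44 and 9.50 at 4 h. In AtT-20 it stood at 6.91 and 5.997, 7.46 and 6.67, and 7.87 and 6.79, where the runs were further apart than the response. The difference was -2.08 ± 0.169 (adjusted p from limma 0.000118, without the block 0.12). Sox4, a transcription factor of progenitor cells picked after its values were seen, had responses of 1.45 in 3134 and -0.59 in AtT-20 and a difference of 2.03 ± 0.15 (adjusted p from limma 7.26e-05, without the block 0.00135).

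A few genes responded by at least 1 in both lines in the same direction. Of these 7 genes, Ddit4, Per1, Arrdc2 and Rgs2 were called above 0, and Sesn1, Klf15 and Sgk1 were not. Sesn1, a sestrin that restrains mTOR, stood at 7.80 and 7.80 at 0 h, at 9.56 and 9.56 at 2 h, then at 9.93 and 9.62 at 4 h in 3134, and at 7.10 and 7.23, 9.02 and 8.82, and 8.98 and 8.99 in AtT-20. The difference was 0.08, with a 95% interval of -0.30 to 0.47. That interval excludes the sizes seen for Fkbp5 and Dusp1 but not a small difference.

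Klf15, a zinc finger factor of amino acid and lipid use, had a difference of -0.11 with an interval of -0.70 to 0.48, and the runs gave 0.52 (run 1) and -0.74 (run 2). Sgk1, a kinase that keeps sodium channels at the membrane, had 0.41 with an interval of -0.09 to 0.90. Only 5 of its 23 probesets had a difference above 0, and the median over its probesets' own differences was -0.53, so the direction of Sgk1 depends on how its exons are combined. Ddit4, an inhibitor of mTOR, had 1.01 ± 0.173 (adjusted p from limma 0.00894) and was not called without the block (adjusted p 0.118), nor without the 3134 array at 0 h of run 1 (adjusted p 0.0541) or run 2 (adjusted p 0.108), nor without that of AtT-20 of run 2 (adjusted p 0.0682). Arrdc2, an alpha-arrestin, had 1.62 ± 0.191 from equal levels at 0 h (7.40 and 7.30 in 3134, 7.29 and 7.46 in AtT-20).

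On the list of mTOR brakes, arrestins and stress genes, 5 of 18 tested were called above 0 (Arrdc2, Ddit4, Trib1, Herpud1 and Gadd45g) and 2 below 0 (Gadd45a and Chac1). Over all genes tested the shares were 1.72% and 0.815%, and the list's median was 0.14. Gadd45a, a growth arrest and DNA damage protein, had -1.44 ± 0.193 (adjusted p from limma 0.00237, without the block 0.302). The pseudokinase Trib1 had 1.13 ± 0.18 and the membrane protein Herpud1, which helps degrade misfolded proteins, 0.98 ± 0.162. Neither was called without the 3134 array at 0 h of run 2 (adjusted p 0.0706 and 0.103), and Herpud1 was not called without the block (adjusted p 0.348). The cell cycle inhibitor Cdkn1a had 1.34 ± 0.197 and was the 1 gene of 33 cell cycle genes tested that was called, a share near the 2.53% of all genes. It was not called without the 3134 array at 0 h of run 1 (adjusted p 0.0527). The survival factor Bcl2l1 was the 1 called of 18 apoptosis genes tested, against 2.53% of all genes, at 1.505 ± 0.178 (adjusted p from limma 0.00106).

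For the receptor and its partners, 1 of 24 genes tested on the list, Fkbp5, was called, a share near the 2.53% of all genes, and the median difference was -0.06. The receptor itself, Nr3c1, stood in 3134 at 10.39 and 10.47 at 0 h, at 9.72 and 9.81 at 2 h, then at 9.48 and 9.39 at 4 h. AtT-20 arrays gave 8.84 and 8.99, 8.53 and 8.81, and 8.35 and 8.49. Levels in 3134 lay above those in AtT-20 on all arrays, and the difference in response was -0.45 with a 95% interval of -0.80 to -0.11 (adjusted p from limma 0.217, not called). The acetyltransferase Ep300 came nearest the threshold among the cofactors, at 0.71 ± 0.167 (adjusted p from limma 0.0558). H6pd, which supplies the cofactor for local glucocorticoid activation, was the 1 called of 5 genes of steroid access tested (2.53% of all genes). H6pd had a difference of 0.78 ± 0.169 (adjusted p from limma 0.0357). It was lost under 20 of 29 other settings, among them the fit without the block (adjusted p 0.718).

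No gene was called among 15 SOCS, STAT and cytokine receptor genes, 10 corticotroph genes, 21 secretory granule genes, 18 cholesterol genes and 14 housekeeping genes tested, whose median differences were -0.22, -0.07, -0.01, -0.09 and -0.04. With 2.53% of all genes called, 0 calls in lists of these sizes is not a result about them. The tested markers of mammary epithelium (5), mesenchyme (12), other pituitary cells (1) and immune or endothelial cells (2) held no called gene either. Pomc stood in AtT-20 at 13.50 and 13.00 at 0 h, at 13.52 and 13.14 at 2 h, then at 13.40 and 13.17 at 4 h, a response of 0.06. It was below the level needed in 3134, and its difference was -0.48 with an interval of -1.03 to 0.08 (adjusted p from limma 0.511). Over all lists, 34 of 344 genes tested were called above 0 and 23 below 0, against 1.72% and 0.815% of all genes tested.

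The difference in response was then set against the level of each gene before hormone. Of the 7975 genes that reached the level needed at 0 h in both lines, 1.81% were called (108 above and 36 below 0). Of the 850 that reached it only in 3134, 8% were called (35 above and 33 below 0), and of the 1185 that reached it only in AtT-20, 2.19% (16 above and 10 below 0). The 850 could be tested without AtT-20 reaching the level, and the 1185 without 3134 reaching it. Among 180 genes that reached it in neither line until dexamethasone was given, 11.1% were called, but these could only be tested because a treated group was high. Precision was not the same in these classes, with a median standard error of 0.179 for genes measured in both lines and of 0.207 and 0.208 for those measured in 3134 only and in AtT-20 only.

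The share called was highest where 3134 exceeded AtT-20 most at 0 h, and lowest where the lines lay close. Some genes far apart passed the filter through 3134 or AtT-20 alone, so these shares are a description. Among genes that reached the level needed at 0 h in both lines, 4.47% of 806 were called where 3134 was higher by at least 1. Where AtT-20 was higher by at least 1, 3.53% of 849 were called. The next shares are over all genes tested, including those that reached the level in only 1 line or in neither at 0 h. Where 3134 was higher by at least 2 log2 units, 33 of 748 of these genes were called above 0 and 36 below 0, together 9.22%. Where the lines lay within 1 log2 unit, 82 of 6750 were called above 0 and 14 below 0, together 1.42%. Where AtT-20 was higher by over 2, 16 of 910 were called above 0 and 9 below 0, together 2.75%.

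**Figure D4:**
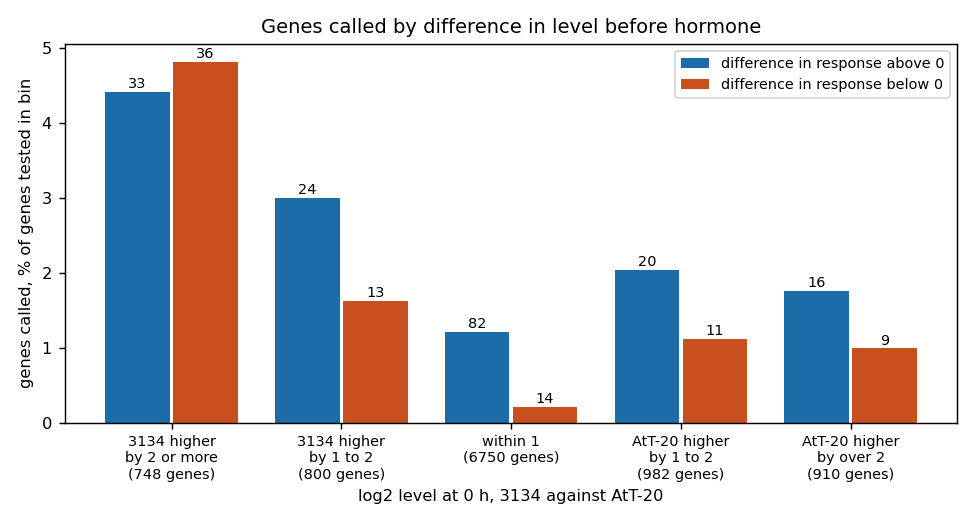
Share of tested genes called for the difference in response (vertical axis, percent of the genes in each bin), by how the 0 h levels of the lines compare (horizontal axis). Blue bars are differences above 0 and orange bars below 0, with the number of genes called above each bar. Both bars are highest where 3134 exceeded AtT-20 by at least 2 log2 units (33 and 36 of 748 genes). Some genes in the outer bins reached the level needed in 3134 but not in AtT-20, or the reverse.

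The difference in response and the difference at 0 h share the 0 h arrays, so an error in those arrays moves both. They were therefore also taken from different runs. With the 0 h levels of run 1 and the responses of run 2, 4.85% of genes with 3134 higher by at least 2 had a difference in response of at least 1 and 5.48% of at most -1, against 1.14% and 0.932% of genes within 1. With the runs exchanged, the shares were 3.91% and 5.40%, against 1.03% and 0.283%. Across genes, the correlation between the 0 h difference of run 1 and the difference in response of run 2 was -0.0138, and -0.0976 with the runs exchanged (Pearson's r over 10190 genes, which are not independent replicates). Genes higher in AtT-20 by over 2 had shares of 2.16% and 1.54%, and of 2.29% and 1.03% with the runs exchanged, also above those of genes within 1. Genes with 3134 higher by 1 to 2 had 3.66% and 1.96%, and 2.32% and 1.04% with the runs exchanged. Genes with AtT-20 higher by 1 to 2 had 1.97% and 0.888%, and 2.39% and 0.797% with the runs exchanged, so 1 of these shares was below that of genes within 1. No difference between these shares was tested, and taking the values from different runs does not remove the filter on low levels.

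Genes with like levels before hormone were called as well. Of 6320 genes that reached the level needed in both lines and lay within 1 log2 unit at 0 h, 78 (1.23%) were called, 67 above and 11 below 0. Among the 78 were Dusp1, Fkbp5, Glul, Nfil3, Tsc22d3 and Arrdc2 above 0 and Mdm1, Dusp4 and Gadd45a below 0. Without the block 20 of the 78 were called, and Tsc22d3 and Gadd45a were not. A further 74 called genes (47 above and 27 below 0) lay below the level needed in AtT-20 at 0, 2 and 4 h, which is 8.86% of the 835 genes tested in that state. These 835 were tested only because 3134 reached the level, for some only with dexamethasone, so the share is a description and nothing is read from it. Those below it in 3134 at all times gave 24 calls among 1159 (2.07%), genes tested only because AtT-20 reached the level.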

How the data were processed

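RNA of 3134 and AtT-20 cells was measured on 15 Affymetrix mouse exon arrays, and 12 of them entered the comparison. The authors deposited a log2 value per exon probeset and array. The submitters' processing notes name RMA and Affymetrix Expression Console, with versions not given in the sources used here. Column medians were 7.83 to 8.14 (run 1) and 6.91 to 7.2 (run 2) in 3134, and 7.51 to 7.85 and 6.93 to 7.22 in AtT-20, so the 12 arrays were quantile normalized.

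Of 228090 probesets, 207232 had exactly 1 gene in the platform annotation and were used, while 3882 had several and 16976 none. Of 16207 symbols, 14055 were current in RefSeq (GRCm38.p6), 2111 were updated and 41 kept. A gene value was the median over at least 3 probesets (median 12 per tested gene), for 15025 genes, and 10190 whose highest group mean reached the 40th percentile, log2 6.27, were tested. Of the list genes, 48 had no value and were not analysed here.

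The difference in response was tested with limma 3.58.1 (R 4.3.3, files read with data.table, version 1.17.8), by lmFit and eBayes (2-sided, 4 residual degrees of freedom), with run within line as a fixed block. Adjustment followed Benjamini and Hochberg over all genes tested, threshold 0.05, and every adjusted p is from limma. Runs pair arrays: deviations from group means correlated at 0.526 to 0.581 over 6 pairs of the same line and run, and at 0.275 to 0.385 over 9 pairs that share a run number across the lines. The highest correlation between 2 arrays was 0.984, and none was taken for a repeat. In simulated data on 10190 genes, 59 of 100 differences of 1 and 91 of 100 of 2 (log2) were recovered, with 3 false calls. The simulated noise was independent between arrays and followed the same model with the block. It therefore cannot show whether that model holds for these arrays.

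Named genes were the 12 largest differences each way among called genes with the same sign in both runs, up to 4 members with the smallest p of each of 22 lists, the 5 smallest differences among genes responding by at least 1 in both lines, and Nr3c1, Fkbp5, Per1, Tsc22d3, Sgk1 and Pomc. Predicted loci could stay unnamed. Other list members and the genes of a pattern were named after their values were seen. The comparison, the lists and these rules were chosen with earlier results of these data known. Figures were drawn with matplotlib 3.10.9.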

Additional observations from a re-analysis of the deposited data

Results flagged for a closer look

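The difference in response between the lines is itself a difference of effects under the same contrast, and it passed the test for 258 genes. The 49 of them that the rule for named genes took are listed here. Among the named genes with a difference above 0 (log2, 3134 response minus AtT-20 response), the glucocorticoid, acute phase and fuel genes and the others of the 12 largest were Orm1 (4.76), Pdk4 (3.75), Orm2 (3.35), Mt2 (3.24), Lcn2 (3.19), Fam107a (2.65), Amy1 (2.53), Dusp1 (2.49), Edn1 (2.47), Suox (2.28), Slc10a6 (2.27), Slc25a33 (2.22), Pfkfb3 (2.19), Nfil3 (2.18) and Glul (2.06). Smaller differences above 0 passed for Fkbp5 (1.96), Tsc22d3 (1.93), Slc39a14 (1.82), Rgs2 (1.71), Ccn2 (1.63), Arrdc2 (1.62), Bcl2l1 (1.505), Per1 (1.38), Cdkn1a (1.34), Klf2 (1.20), Trib1 (1.13), Ddit4 (1.01), Herpud1 (0.98), Bhlhe41 (0.83) and H6pd (0.78). Differences below 0 of at most -2 passed for Ccl2 (-3.66), Cxcl5 (-2.81), Cxcl3 (-2.60), Mdm1 (-2.37), Arhgef3 (-2.27), Dusp4 (-2.19), Gas1 (-2.08) and Ankrd1 (-2.02), and smaller ones for Tnip3 (-1.96), Cables1 (-1.85), Plau (-1.85), Phlda1 (-1.83), Cxcl1 (-1.65), Gadd45a (-1.44), Tat (-1.42), Fosl2 (-1.40), Ier3 (-1.24), Myc (-1.10) and Plaur (-1.06). Adjusted p-values are from limma with the run as a block. Groups held 2 arrays each, too few to look for an array apart from its group.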

How the results depend on the processing

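The fit without a block for the replicate run called 57 genes (46 above and 11 below 0), all among the 258, and a block shared by the lines called 157 (114 and 43). Other counts were 169 (96 above 0) on the deposited scale, where the median difference was -0.09, 142 (103 and 39) with no filter on dim genes, 520 (306 and 214, of which 230 shared with the 258) with the mean over probesets, and 140 (93 and 47) with 2 h only. Centred arrays, quantile normalization over 15 arrays, all 15 arrays in the fit, a filter at the 60th percentile, at least 1 probeset, 4 h only, and a trended robust fit gave 246 to 292. Leaving out arrays or whole runs gave 79 (without run 1 of 3134) to 256 calls, 54 to 169 above 0 and 25 to 92 below 0. It was 85 without run 2 of 3134 and 128 without run 2 of AtT-20. Fits without a whole run, or without its 0 h array, drop the response of that run. They assume that the lone arrays vary like the rest.

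Without the block, 0.414% of genes measured at 0 h in both lines were called, 1.88% of those in 3134 only, 0.169% in AtT-20 only and 3.33% in neither, and 19 list members were called above 0 and 6 below 0. A level at the 60th percentile gave 3.22% for genes in neither, and centred arrays 3.70% for AtT-20 only. With smaller size limits (0.75 for the line that responds), 31 called genes were opposite, 17 had the same direction and a larger response in 3134, and 1 responded downward in AtT-20 only. Of 49 called genes named, 24 stayed called under every setting listed here in which they were tested, and no difference changed sign. Some of the 24, among them Slc10a6, Tnip3 and Plau, were not tested in every setting. The cause of these shifts was not tested. The level needed for testing is a filter on low values, so genes under it in every group were not tested.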
